A study of Mus musculus with 6 samples.

Results

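The genes described here are transcripts typical of macrophages, followed in cultures of cardiac fibroblasts (CF) and of cardiomyocytes (CM). They were taken from a list of 47 genes that mark macrophages or serve their functions, and 46 of them were found by symbol among the 19505 genes of the array. Cd68 was not found under its symbol and was not analysed here. The cells came from C57BL/6N mice of 15 to 16 weeks. Both cultures received phosphate-buffered saline (PBS, called sham in the sample titles) or macrophage secretome, from Ccrl2+ or from Ccrl2- cells, over 48 h. The macrophages were sorted from 6 pooled hearts of wild-type mice 1 week after TAC (transverse aortic constriction, an operation that narrows the aorta and loads the heart with pressure), so that each secretome stands for 1 pool. The source labels name a secretome, whereas the protocols speak of co-culture with the sorted macrophages. Whether macrophages themselves entered the treated cultures therefore cannot be told apart from these labels. There was 1 array for each of the 6 groups. The spread between replicates is therefore unknown, and neither errors nor p-values can be given.

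Macrophages are phagocytes of the tissue. The heart holds a resident population, marked in mice by genes such as Lyve1, Folr2, Timd4, Vsig4 and Mrc1, and recruits monocytes through the chemokine receptor Ccr2 after injury. Their identity depends on the transcription factor PU.1, encoded by Spi1, and on the growth factor receptor Csf1r. Fibroblasts and cardiomyocytes are not known for most of these transcripts, but some of the genes are shared with other cells: Lyve1 also marks lymphatic endothelium, and Apoe is made by several cell types.

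Values are log2 probe set values, on which a difference of 1 is 2-fold. They are compared between arrays for 1 gene at a time, never between genes. The floor for counting a difference was 6.55, the median of all values with a gene symbol, and a gene counted when its higher value reached it. Counts of 2-fold differences use the measured values. For a gene whose smaller value was under the floor, the difference from the floor is given as well, written as "at least", and can be smaller than 2-fold. The floor is no detection limit. The 5222 probe sets that serve as negative controls had a median of 6.2 to 6.71, depending on the array, and a 95th percentile of 10.2 to 10.74. Of the 46 macrophage genes, 29 reached the floor on all 6 arrays, which is 63.0% of them against 45.0% of all genes, and 8 lay above the 95th percentile of the controls on all 6. The genes Cd163, Timd4, Ccr2 and Cd86 stayed below the floor on every array. Lyz2, Fcgr2b, Fcgr3, Pirb, Wfdc17 and the 3 Ms4a6 genes have close relatives whose transcripts their probes may also bind, so their values are uncertain in that respect.

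The arrays carried the markers of the cultures they are labelled with. The mean of 9 fibroblast markers lay between 15.81 and 16.2 on the CF arrays and between 9.79 and 10.76 on the CM arrays. The mean of 10 cardiomyocyte markers lay between 8.67 and 10.04 in CF and between 15.74 and 15.95 in CM. Most markers of other leukocytes lay below the floor. All 6 B lymphocyte genes, 10 of 11 neutrophil genes (all but Mmp8, at most 6.87), 10 of 11 T and NK lymphocyte genes (all but Cd4, at most 6.72), 6 of 7 dendritic cell genes (all but Ccr7, at most 7.37) and 5 of 7 mast cell genes (all but Kit, at most 8.88 and above the floor on 5 arrays, and Mcpt4, at most 7.13) stayed below the floor on all 6 arrays.

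**Figure D1:**
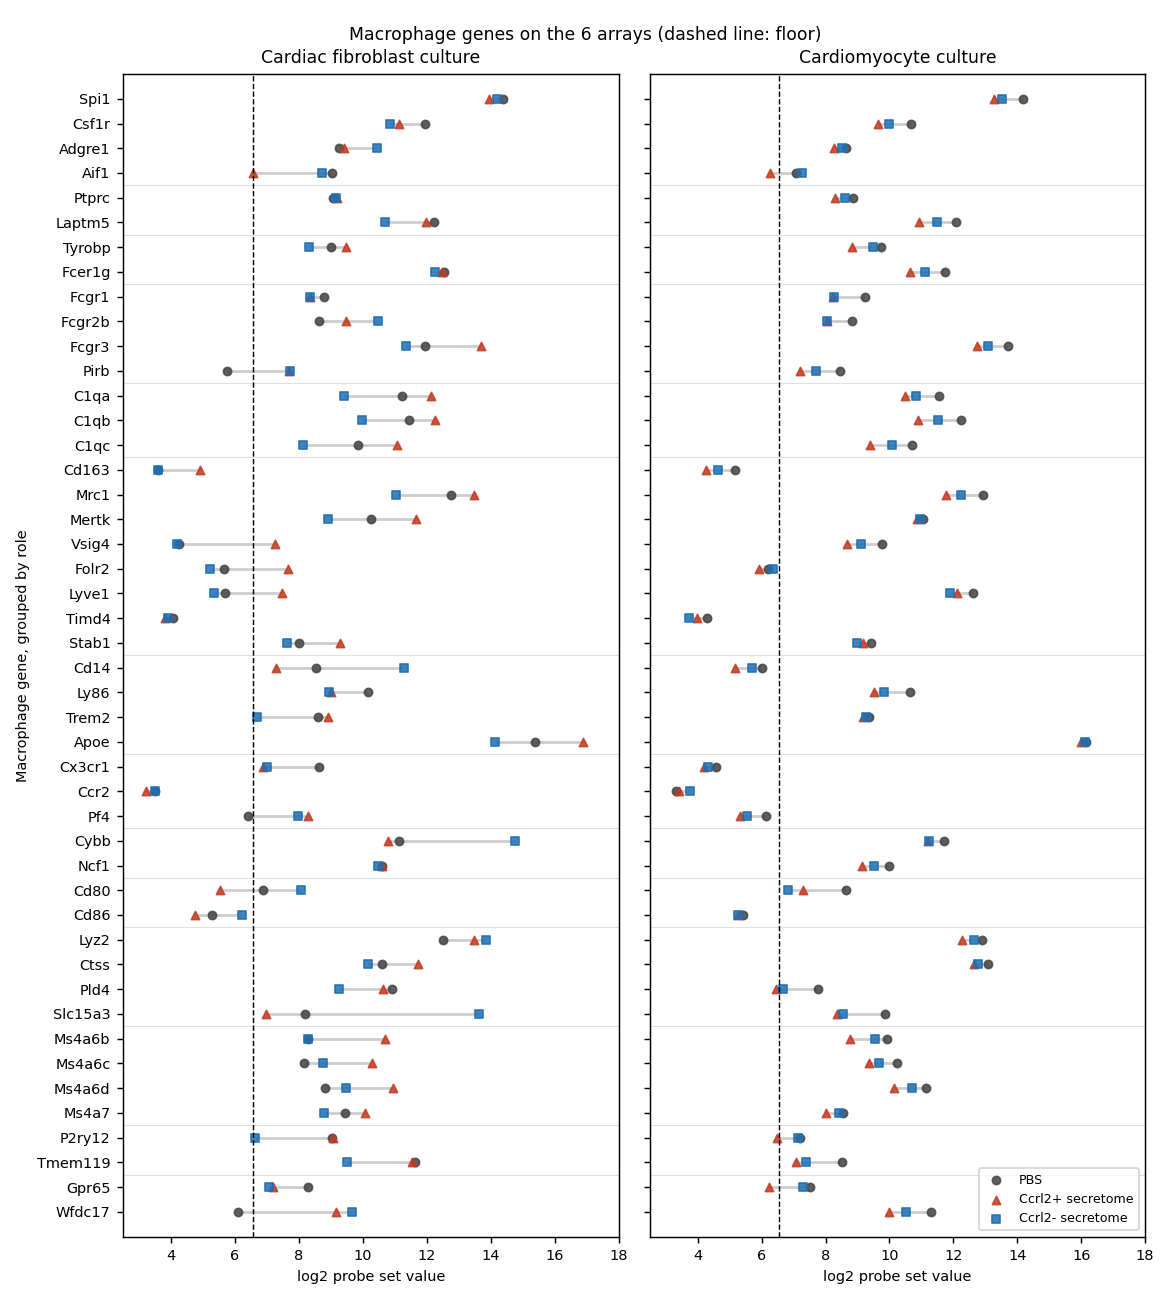
Log2 probe set value of the 46 macrophage genes (rows, ordered by role) on the 3 fibroblast arrays (left) and the 3 cardiomyocyte arrays (right), with 1 array per symbol; the grey bar spans the 3 arrays of a culture and the dashed line is the floor of 6.55. In cardiomyocyte cultures the PBS array (circle) was the highest for 37 of 38 genes past the floor, beside 37.7% of all genes. In fibroblast cultures the order differed from gene to gene.

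Macrophage genes were lower in the cardiomyocyte cultures kept with either secretome than in PBS, most of all with the Ccrl2+ secretome. The fibroblast cultures showed no common shift. There C1qc, Mertk, Stab1, Apoe and the 3 Ms4a6 genes were at least 2-fold higher with the Ccrl2+ secretome than with PBS, while the 3 C1q genes, Mrc1, Mertk and Apoe were at least 2-fold lower with the Ccrl2- secretome, and Cybb, Cd14 and Slc15a3 were far higher with the Ccrl2- secretome. In bulk RNA, the number of macrophages, a transcript's amount per macrophage and expression by other cells cannot be told apart. A gene's range over the 3 arrays had a median of 1.91 for macrophage genes in CF and 0.91 in CM, beside 0.47 and 0.32 for all genes. Comparisons with the same PBS array share its chance values.

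In the cardiomyocyte culture with Ccrl2+ secretome, 51.2% of all genes past the floor lay below their PBS value. All 38 macrophage genes past the floor did so. Of these, 19 were at least 2-fold lower and 0 at least 2-fold higher, where 0.629% of the 10009 genes that reached the floor were lower and 0.21% higher by as much. Counted from the floor, 18 were at least 2-fold lower. The 19 made up 30.2% of the genes at least 2-fold lower in this comparison and 41.3% of the 46 macrophage genes. The list was chosen with earlier results of these data known, so these shares describe the list and are no independent support. The median over the 38 was -0.98 and over all 46 it was -0.89, beside -0.01 over all genes. The negative controls varied more than the genes, with 6.8% of those past the floor at least 2-fold lower and 6.06% higher, but around a median of -0.03. Among the 15 macrophage genes whose mean over the CM arrays exceeded 10.22, the mean 95th percentile of the controls, the differences ran from -1.35 to -0.17 with a median of -0.96. In that range 0.332% of genes were at least 2-fold lower.

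Genes that define the lineage were lower too, though not all by 2-fold. Csf1r, the receptor for the macrophage growth factor CSF-1, lay at 10.67 with PBS, 9.65 with the Ccrl2+ and 9.97 with the Ccrl2- secretome. Spi1 lay at 14.19, 13.27 and 13.53, and Ptprc, the leukocyte phosphatase CD45, at 8.86, 8.29 and 8.6. In each of these the PBS array was highest and the Ccrl2+ array lowest. The lysosomal membrane gene Laptm5 lay at 12.09, 10.93 and 11.5, a difference of -1.16 between Ccrl2+ and PBS. Fcer1g, the signalling chain shared by Fc receptors, lay at 11.75, 10.63 and 11.12, and Tyrobp, the DAP12 adaptor, at 9.73, 8.83 and 9.49. Adgre1, which encodes a classical surface antigen of mouse macrophages, differed little (8.65, 8.25 and 8.52).

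The C1q genes encode the chains that start the classical complement pathway, and macrophages are a main source of them. In CM, C1qa lay at 11.54 with PBS, 10.48 with Ccrl2+ and 10.83 with Ccrl2-. C1qb lay at 12.25, 10.9 and 11.53, and C1qc at 10.69, 9.39 and 10.07. All 3 chains had the order PBS, Ccrl2-, Ccrl2+, with Ccrl2+ lower than PBS by 1.06, 1.35 and 1.3. The mannose receptor gene Mrc1 kept the same order (12.92, 11.76 and 12.23 for PBS, Ccrl2+ and Ccrl2-), and so did the complement receptor gene Vsig4 (9.76, 8.66 and 9.11).

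Not all macrophage genes were lower by as much. Apoe, the lipid carrier, lay at 16.15 with PBS, 15.98 with Ccrl2+ and 16.11 with Ccrl2-, the narrowest range of all macrophage genes in CM (0.17). The efferocytosis receptor gene Mertk (11.06, 10.87 and 10.94), the lipid receptor gene Trem2 (9.37, 9.17 and 9.28) and the scavenger receptor gene Stab1 (9.43, 9.16 and 8.98) also differed by less than 0.5. Lyve1 lay at 12.6, 12.11 and 11.9. At the other end were the endolysosomal transporter gene Slc15a3 (9.87, 8.35 and 8.56), the costimulatory ligand gene Cd80 (8.65, 7.31 and 6.82) and Tmem119 (8.51, 7.06 and 7.4). For Stab1, Lyve1 and Cd80 the Ccrl2- array was the lowest. Cybb lay at 11.7, 11.2 and 11.24, Ctss at 13.07, 12.64 and 12.77 and Lyz2 at 12.88, 12.27 and 12.64. Besides the 4 genes below the floor everywhere, Cd14, Cx3cr1, Pf4 and Folr2 stayed below it on all CM arrays.

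With the Ccrl2- secretome, 37 of 38 macrophage genes past the floor lay below PBS in CM, beside 51.7% of all genes past it. At least 2-fold lower were 4 of the 38, and 0 were higher. These were Cd80, Slc15a3, Tmem119 and Pld4, an endolysosomal nuclease gene. The background was 0.786% lower and 0.746% higher, and among negative controls that reached it 9.77% lay lower by 2-fold or more. The median was -0.6, or -0.55 over all 46, beside 0.0 over all genes.

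Set directly against each other, the CM arrays with Ccrl2+ and Ccrl2- secretome differed by a median of -0.34 over the 38 macrophage genes past the floor. Of these, 34 lay lower with Ccrl2+. Over all genes past the floor the median was 0.0, and 49.8% lay lower. Aif1 (6.26 against 7.26, at least 0.71 lower), which encodes the calcium-binding protein IBA1, and the proton-sensing receptor gene Gpr65 (6.22 against 7.28, at least 0.73 lower) were the 2 genes with a measured difference of 2-fold, where 0.18% of all genes were lower and 0.13% higher by as much. For both, the value with Ccrl2+ lay below the floor, and counted from the floor neither reached 2-fold.

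Leukocyte and myeloid genes outside the list were also lower in CM by their medians, though by less. Of 21 pan-leukocyte genes that are no members of the list, 19 lay below PBS with Ccrl2+ (median -0.53) and 19 with Ccrl2- (median -0.39). Of 33 further myeloid genes, 26 lay below PBS with Ccrl2+ (median -0.58) and 24 with Ccrl2- (median -0.38). Few of these genes were lower by 2-fold or more. With Ccrl2+ these were 3 of 14 pan-leukocyte genes past the floor and 1 of 24 further myeloid ones, beside 0.629% of all genes. That 1 was Tlr7 (12.44 with PBS against 10.96). With Ccrl2- they were 0 of 14 and 3 of 23, beside 0.786%. Among all genes, 50.3% lay below PBS with Ccrl2+ and 48.7% with Ccrl2-. Of the 21 and the 33 genes, 6 and 5 stayed below the floor on all arrays. The 22 endolysosomal and lipid handling genes, which many cell types express, had medians of -0.08 with Ccrl2+ and 0.0 with Ccrl2-. Medians above 0 were found for the 16 efferocytosis and opsonin genes (0.06 with Ccrl2+ and 0.12 with Ccrl2-) and for the 15 alternative activation genes (0.15 and 0.06), of which 10 stayed below the floor on all arrays. Markers of other cells in the culture differed as well. The mean of the fibroblast markers was 9.79 with PBS, 10.28 with Ccrl2+ and 10.76 with Ccrl2-, highest where the macrophage genes were intermediate. The mean cardiomyocyte marker value was 15.92, 15.95 and 15.74 and the mean endothelial one 12.18, 12.17 and 12.28. The median difference of the 4 poly-A spike-ins from PBS was 0.26 with Ccrl2+ and -0.02 with Ccrl2-. The part of these shifts in the result was not tested.

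**Figure D2:**
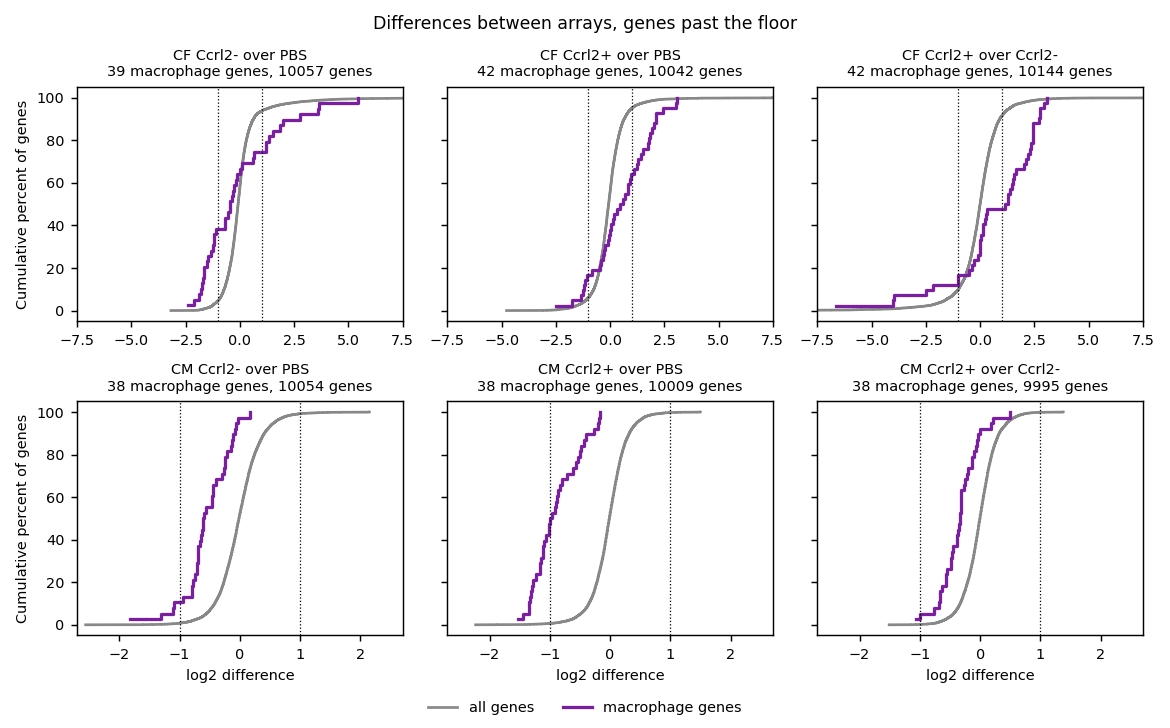
Cumulative percent of genes (y axis) against the log2 difference between a pair of arrays (x axis; the upper row runs from -7.5 to 7.5 and leaves out the few genes beyond) for macrophage genes (purple) and all genes (grey) whose higher value reached the floor; dotted lines mark 2-fold. In the lower row the whole purple curve of Ccrl2+ over PBS in CM lies below 0, while in the upper row the purple curves spread to both sides and are wider than the grey ones.

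In the fibroblast cultures, the CD45 gene Ptprc lay at 9.06 with PBS, 9.18 with Ccrl2+ and 9.17 with Ccrl2- secretome. This was the narrowest range of all macrophage genes in CF (0.12), at values under the 95th percentile of the controls (10.67 to 10.74). Other single macrophage genes differed widely in both directions. With the Ccrl2+ secretome, 15 of the 42 macrophage genes that reached the floor were at least 2-fold higher than with PBS and 7 lower, beside 4.87% and 6.13% of all genes. With the Ccrl2- secretome, 10 of 39 were at least 2-fold higher and 15 lower, beside 6.18% and 4.83%. Between the secretomes, 22 of 42 were at least 2-fold higher with Ccrl2+ and 7 lower, beside 8.55% and 10.1%. Counted from the floor, Ccrl2+ over PBS gave 13 higher and 6 lower, and Ccrl2+ over Ccrl2- gave 20 higher and 7 lower. Negative controls that reached the floor gave 7.75% higher and 11.3% lower between the secretomes. The median of Ccrl2+ over Ccrl2- was 1.21 over these 42 and 0.74 over all 46, beside 0.02 over all genes. Among the 13 macrophage genes with a mean above the 10.7 of the controls, 8 were at least 2-fold higher with Ccrl2+ and 1 lower, where 7.18% and 7.31% of genes that bright differed by as much.

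The C1q genes were among the clearest. In CF, C1qa lay at 11.22 with PBS, 12.12 with Ccrl2+ and 9.42 with Ccrl2-. C1qb lay at 11.43, 12.27 and 9.98. C1qc lay at 9.84, 11.07 and 8.11. All 3 chains were highest with Ccrl2+ and lowest with Ccrl2-, a difference between the secretomes of 2.7 for C1qa, 2.29 for C1qb and 2.96 for C1qc. The 3 genes lie on chromosome 4 in RefSeq's GRCm38.p6 annotation.

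The MS4A genes encode membrane proteins with several transmembrane passes. Ms4a6b lay at 8.28 with PBS, 10.7 with Ccrl2+ and 8.28 with Ccrl2-. Ms4a6c lay at 8.15, 10.29 and 8.76, and Ms4a6d at 8.82, 10.93 and 9.47. Here the Ccrl2+ array stood above both others, by 2.42, 2.14 and 2.11 over PBS. Ms4a7 differed less (9.45, 10.06 and 8.78).

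Promoters are printed for C1qb and C1qc, which shared one order of the CF arrays, for Ms4a6b and Ms4a6c, both highest with Ccrl2+ but not lowered with Ccrl2-, and for Cybb, whose highest CF value came with the other secretome. They run from 250 bases before to 50 after the gene's start and come from RefSeq (GRCm38.p6), 5′ to 3′ on the gene's strand. C1qb is at chr4:136886151-136886450 (minus strand), C1qc at chr4:136892865-136893164 (minus), Ms4a6b at chr19:11518309-11518608 (plus), Ms4a6c at chr19:11469118-11469417 (plus) and Cybb at chrX:9469275-9469574 (minus). Capitals mark the letters AGGAAGT, a core of the PU.1 motif, or their reverse complement ACTTCCT.
C1qb: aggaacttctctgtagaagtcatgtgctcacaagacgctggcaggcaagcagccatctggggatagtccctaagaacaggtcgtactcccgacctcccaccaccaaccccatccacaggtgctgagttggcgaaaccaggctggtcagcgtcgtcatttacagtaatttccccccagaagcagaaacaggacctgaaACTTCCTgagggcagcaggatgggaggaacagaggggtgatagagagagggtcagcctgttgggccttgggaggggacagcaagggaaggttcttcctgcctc
C1qc: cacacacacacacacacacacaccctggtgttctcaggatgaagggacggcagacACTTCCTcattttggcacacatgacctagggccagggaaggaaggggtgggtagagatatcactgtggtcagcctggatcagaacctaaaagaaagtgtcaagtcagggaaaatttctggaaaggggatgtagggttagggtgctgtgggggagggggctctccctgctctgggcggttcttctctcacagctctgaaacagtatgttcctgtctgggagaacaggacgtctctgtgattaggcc
Ms4a6b: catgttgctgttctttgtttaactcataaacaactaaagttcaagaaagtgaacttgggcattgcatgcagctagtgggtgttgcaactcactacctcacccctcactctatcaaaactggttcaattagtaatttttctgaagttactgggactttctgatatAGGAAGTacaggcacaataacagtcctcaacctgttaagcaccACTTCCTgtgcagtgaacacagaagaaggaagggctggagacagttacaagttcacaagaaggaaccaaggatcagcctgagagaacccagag
Ms4a6c: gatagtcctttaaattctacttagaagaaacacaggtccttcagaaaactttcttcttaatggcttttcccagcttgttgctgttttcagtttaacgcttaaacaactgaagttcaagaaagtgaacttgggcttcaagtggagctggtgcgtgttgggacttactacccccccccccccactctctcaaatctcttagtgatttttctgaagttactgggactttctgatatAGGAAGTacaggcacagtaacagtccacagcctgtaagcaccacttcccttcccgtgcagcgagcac
Cybb: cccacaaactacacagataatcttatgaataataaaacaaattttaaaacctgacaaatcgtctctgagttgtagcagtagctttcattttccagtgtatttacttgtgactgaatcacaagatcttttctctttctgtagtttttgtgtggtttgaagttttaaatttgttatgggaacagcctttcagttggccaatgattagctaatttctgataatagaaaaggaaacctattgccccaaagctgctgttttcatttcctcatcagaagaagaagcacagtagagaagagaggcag

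The table held promoters for 35 of the 46 macrophage genes. C1qa, Ms4a6d, Csf1r and Spi1 were among those without an entry. The match in C1qb starts 53 bases before the gene's start, that in C1qc 195 bases, those in Ms4a6b 86 and 43 bases and that in Ms4a6c 17 bases before it. The Ms4a6b and Ms4a6c promoters share a run of 48 bases, which holds the first Ms4a6b match and the Ms4a6c match. The Cybb window holds none of these letters, which says nothing about PU.1 at that gene. Over all macrophage genes, 15 of 41 promoters (36.6%) held the letters on either strand, beside 9.35% of 32851 promoters. A match is a string of letters and not evidence of binding. Spi1 itself lay at 14.39 with PBS, 13.94 with Ccrl2+ and 14.21 with Ccrl2- in CF.

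Of the 8 receptors of resident macrophages and scavenger receptors, 3 had the order of the C1q genes with all CF values above the floor. Mrc1 lay at 12.76 with PBS, 13.47 with Ccrl2+ and 11.04 with Ccrl2-. Mertk, which binds bridging proteins on dying cells, lay at 10.25, 11.67 and 8.91. Stab1 lay at 8.0, 9.29 and 7.64. These 3 receptors were higher with Ccrl2+ than with Ccrl2- by 2.43, 2.76 and 1.65. Vsig4 (4.24, 7.26 and 4.17), the folate receptor gene Folr2 (5.64, 7.66 and 5.22) and Lyve1 (5.67, 7.46 and 5.35) reached the floor with Ccrl2+ only. They were higher than with PBS by at least 0.71, 1.11 and 0.91, so that for Vsig4 and Lyve1 the 2-fold difference rests on values below the floor. Cd163, a haemoglobin scavenger receptor gene, and Timd4, a phosphatidylserine receptor gene, stayed below the floor, at no more than 4.89 and 4.07 in CF.

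**Figure D3:**
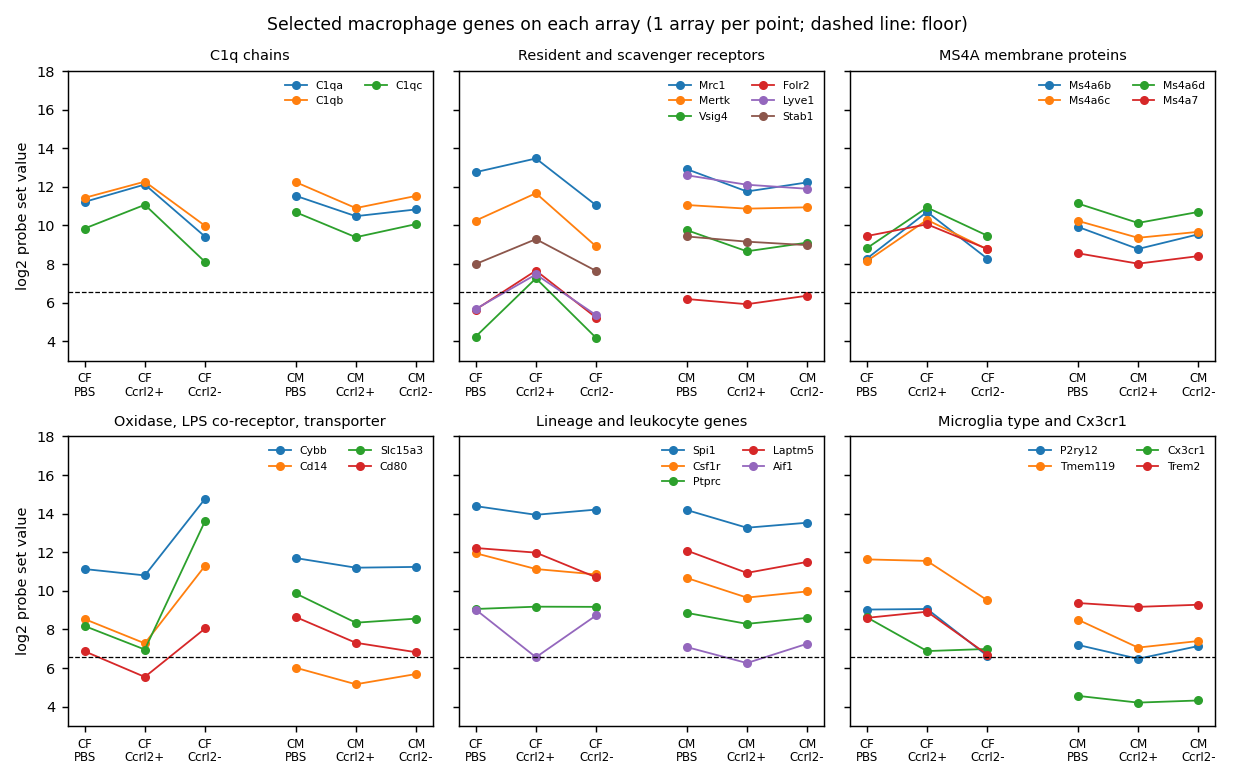
Log2 probe set value (y axis) of selected macrophage genes on the 6 arrays (x axis; CF fibroblast and CM cardiomyocyte culture), with 1 array per point, lines joining the arrays of a culture and a dashed line at the floor of 6.55; levels compare within a gene only. C1q chains and resident receptors peak on the Ccrl2+ array in CF, Cybb, Cd14 and Slc15a3 peak on the Ccrl2- array in CF, and in CM most lines are highest at PBS.

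Some genes of lipid handling, and Fcgr3 alone among the Fc receptor genes, had the order of the C1q genes. Apoe lay at 15.38 with PBS, 16.9 with Ccrl2+ and 14.12 with Ccrl2- in CF, a range of 2.78 between the secretomes, beside 0.17 over all CM arrays. Trem2, whose protein binds lipids and signals through Tyrobp, lay at 8.6, 8.92 and 6.7, and Tyrobp at 8.99, 9.46 and 8.31. The low-affinity IgG receptor gene Fcgr3 lay at 11.93, 13.68 and 11.36. The cathepsin S gene Ctss lay at 10.61, 11.73 and 10.16. In each of these 5 genes the Ccrl2+ array was highest and the Ccrl2- array lowest. Other genes of the same roles did not share this order. Fcgr2b and Cd14 were highest with Ccrl2- (10.46 and 11.3, against 9.46 and 7.28 with Ccrl2+). Fcgr1 (8.35 with either secretome) and Ly86 (8.99 with Ccrl2+ and 8.94 with Ccrl2-) hardly differed between the secretomes. Among other endolysosomal and lipid genes, 21 reached the floor. With Ccrl2+, 4 of the 21 exceeded PBS by 2-fold or more and 0 fell short by as much (median over 22 genes 0.51). The shares among all genes were 4.87% and 6.13%. Gpnmb was the foremost of the 4, at 13.59 with PBS, 15.83 with Ccrl2+ and 12.65 with Ccrl2-. The list as a whole was not lower with Ccrl2-, unlike the C1q genes. There 2 of the 21 exceeded PBS by 2-fold or more and 0 fell short by as much (median over 22 genes 0.1). The shares among all genes were 6.18% and 4.83%. Acp5, 1 of the 4, was highest with Ccrl2- (6.61, 7.62 and 8.71).

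A smaller set was highest with the Ccrl2- secretome. Slc15a3, which carries histidine and bacterial peptides out of the endolysosome, lay at 8.18 with PBS, 6.96 with Ccrl2+ and 13.62 with Ccrl2-, 43.4-fold above PBS. Cybb, the catalytic subunit of the phagocyte NADPH oxidase, lay at 11.13, 10.8 and 14.77. Cd14, the co-receptor for lipopolysaccharide, lay at 8.54, 7.28 and 11.3. All 3 were higher with Ccrl2- than with either other array, by at least 2.76. Cd80 (6.87, 5.54 and 8.05) followed the same order, and Fcgr2b, the inhibitory IgG receptor gene, lay at 8.63, 9.46 and 10.46. Adgre1 was also highest there (9.24, 9.41 and 10.45).

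The partner subunit gene of Cybb in the cytosol, Ncf1, did not share this pattern, at 10.59 with PBS, 10.61 with Ccrl2+ and 10.47 with Ccrl2-. Of 5 other oxidase subunits and partners that reached the floor, 3 were at least 2-fold higher with Ccrl2- than with PBS and 1 lower. Of all genes past the floor, 6.18% were higher and 4.83% lower by as much. Among the 3 was the membrane partner Cyba (10.31, 10.7 and 11.57), and the lower gene was Nox4 (8.47, 8.3 and 6.9). Cyba and Nox4 are also expressed outside leukocytes. The myeloid scavenger receptor gene Marco, no member of the list, lay at 6.03, 6.32 and 11.68, at least 5.13 higher with Ccrl2- than with PBS. Of 12 ligand genes for macrophage growth and recruitment, 6 stayed below the floor on all arrays. The 12 had a median difference from PBS of 1.14 with Ccrl2- and 0.26 with Ccrl2+, beside -0.04 and -0.01 over all genes. Among them, the chemokine genes Ccl7 and Ccl2 lay at 8.38, 8.66 and 15.6 and at 12.02, 12.46 and 17.7. Csf3 (4.56, 4.25 and 8.67) reached the floor with Ccrl2- alone, at least 2.12 above PBS. Ccrl2, the receptor gene by which the macrophages had been sorted, lay in these fibroblast cultures at 6.5 with PBS, 7.03 with Ccrl2+ and 11.37 with Ccrl2-.

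The macrophage genes lowest with the Ccrl2- secretome included markers used for microglia. P2ry12, an ADP receptor gene, lay at 9.03 with PBS, 9.06 with Ccrl2+ and 6.63 with Ccrl2-. Tmem119 lay at 11.63, 11.55 and 9.51. Pld4 lay at 10.91, 10.62 and 9.24, and Laptm5 at 12.22, 11.98 and 10.7. For these 4 genes the PBS and Ccrl2+ arrays lay within 0.3 of each other and the Ccrl2- array lay at least 1.28 below both.

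Another set was lower than PBS with both secretomes in CF. Cx3cr1, the fractalkine receptor gene, lay at 8.63 with PBS, 6.88 with Ccrl2+ and 6.99 with Ccrl2-. Ly86, which encodes the partner MD-1 of a receptor related to Toll-like receptors, lay at 10.15, 8.99 and 8.94, and Gpr65 at 8.28, 7.2 and 7.07. Csf1r lay at 11.95, 11.13 and 10.85. The PBS array was the highest for all 4. Aif1 was lower with Ccrl2+ alone, at 9.03, 6.56 and 8.73, which places it at the floor.

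Higher than PBS with both were Wfdc17, which encodes a small protein of the antiprotease family (6.08, 9.17 and 9.67), Pirb, an inhibitory receptor gene (5.75, 7.7 and 7.72), and Pf4, the chemokine platelet factor 4 (6.42, 8.28 and 7.96). Their PBS values lay below the floor, so they were higher by at least 2.62, 1.15 and 1.73 with Ccrl2+ and by at least 3.12, 1.17 and 1.41 with Ccrl2-. Lyz2, the macrophage lysozyme gene, lay at 12.52, 13.47 and 13.84. Fcer1g (12.55, 12.48 and 12.26), Fcgr1, the high-affinity IgG receptor gene (8.79, 8.35 and 8.35), and Spi1 differed by less than 0.5 over the CF arrays.

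The pan-leukocyte genes that are no members did not follow the C1q pattern in CF. Of 15 that reached the floor, 1 was at least 2-fold higher and 6 were lower with Ccrl2+ than with Ccrl2- (median over 21 genes -0.43). Of all genes past the floor, 8.55% were higher and 10.1% lower by as much. Of 26 further myeloid genes past the floor, 6 were higher and 9 lower (median over 33 genes 0.05). Among the lower was Runx1, a transcription factor gene (7.8 against 11.6). Markers of other cells did move with the C1q order. The mean of the cardiomyocyte markers in CF was 8.96 with PBS, 10.04 with Ccrl2+ and 8.67 with Ccrl2-, with 8 of 9 past the floor at least 2-fold higher with Ccrl2+ than with Ccrl2-. The mean of 7 mesothelial and epicardial markers was 10.4, 11.13 and 9.92. The poly-A spike-ins were higher with Ccrl2+ than with PBS by a median of 0.61 and lower with Ccrl2- by a median of -0.31. The part of any of these in the macrophage genes was not tested.

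The PBS arrays show what each culture held without a secretome. Among the 40 macrophage genes that reached the floor, 7 (17.5%) had at least 2-fold more signal in CF and 12 (30.0%) in CM, beside 13.9% and 16.9% of all genes. Negative controls that reached the floor were themselves shifted between these arrays, with 25.8% higher in CF by 2-fold or more, 4.87% higher in CM and a median of 0.55 towards CF, and the part of this shift was not tested. The median was -0.46, or -0.4 over all 46. Higher in CF were Cx3cr1 (8.63 against 4.56, at least 2.08), Pld4 (10.91 against 7.77), Tmem119 (11.63 against 8.51), Cd14 (8.54 against 6.02, at least 1.99), Aif1 (9.03 against 7.09), P2ry12 and Csf1r. Higher in CM were Lyve1 (12.6 against 5.67, at least 6.05), Wfdc17 (11.3 against 6.08, at least 4.75), Vsig4 (9.76 against 4.24, at least 3.21), Ctss (13.07 against 10.61) and the 3 Ms4a6 genes. So were Pirb (8.44 against 5.75, at least 1.89), Fcgr3 (13.7 against 11.93), Cd80 (8.65 against 6.87), Slc15a3 (9.87 against 8.18) and Stab1 (9.43 against 8.0). The mean of 9 endothelial markers was 8.49 in CF and 12.18 in CM with PBS, which stands beside the Lyve1 difference, and its part there was not tested. Spi1 (14.39 in CF and 14.19 in CM), Ptprc (9.06 and 8.86), Fcer1g and Ncf1 differed by less than 1 between the cultures.

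The differences of the 46 genes from PBS in CF and in CM, which share no array, had a Pearson correlation across genes of 0.02 for Ccrl2+ and -0.22 for Ccrl2-. Genes are not independent replicates, and these coefficients describe the arrays. The SD over the 46 genes was 1.28 in CF and 0.41 in CM for Ccrl2+, and 1.65 and 0.4 for Ccrl2-.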

How the data were processed

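The authors deposited 1 log2 value per probe set and array; the submitters' processing notes name Affymetrix Expression Console as the tool. Its version and summary method, a genome build and the probe annotation's version were not given in the sources used. The log2 scale was read from the values. The arrays had nearly one distribution, so an overall shift between arrays would not show. GEO's platform annotation gave a symbol to 19572 of 28846 probe sets; for 55 symbols with several, none of them a macrophage gene, the highest-mean probe set was used, leaving 19505 genes. All 46 genes found matched RefSeq's GRCm38.p6 gene table.

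Groups follow the source labels. Log2 values of 2 arrays were subtracted in 7 comparisons. A gene was called at 2-fold when its higher value reached the floor of 6.55. No test was made with 1 array per group. All macrophage genes are reported, grouped by role. Of the other lists, up to 3 genes with the largest difference per list and comparison could be named, besides Ccrl2; genes of other leukocytes that reached the floor were named after their values were seen. The macrophage genes and lists were chosen with earlier results of these data known. Alternatives were the 75th percentile as floor, no floor, values raised to the floor, a 3-fold threshold, quantile normalization, a loess trend (span 0.4) removed and the mean of probe sets. A median was taken to have moved when it changed by over 0.1 and a count when it changed by over 1.5 times. The counting was tested on simulated data, with noise set from the CM arrays with Ccrl2+ and Ccrl2- secretome for every comparison. Changes were planted only in genes well above the floor, so this test cannot speak for calls near the floor or for CF noise. Python 3.11.15, numpy 2.4.6, pandas 2.3.3, statsmodels 0.14.6 and matplotlib 3.10.9 were used.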

Additional observations from a re-analysis of the deposited data

Results flagged for a closer look

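For 8 differences from PBS the measured values of a macrophage gene were at least 2-fold higher in CF and at least 2-fold lower in CM; with 1 array per group the contrast between the cultures was not tested. With the Ccrl2- secretome these were Slc15a3 (5.44 in CF and -1.31 in CM, 6.75 apart) and Cd80 (1.18 and -1.83, 3.01 apart). With the Ccrl2+ secretome they were Wfdc17 (3.09 and -1.33, 4.42 apart), Vsig4 (3.02 and -1.1, 4.12 apart), Ms4a6b (2.42 and -1.15, 3.57 apart), Pirb (1.95 and -1.23, 3.18 apart), Ms4a6d (2.11 and -1.01, 3.12 apart) and C1qc (1.23 and -1.3, 2.53 apart). The CF PBS values of Wfdc17, Vsig4 and Pirb were below the floor; counted from it, the CF differences are at least 2.62, 0.71 and 1.15, so that Vsig4 is not 2-fold higher by that count.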

How the results depend on the processing

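Of 140 recomputed medians and counts 115 kept within the limits set and 25 moved. None of the medians among them changed its sign. A count has no direction to change, and some counts fell to 0. Without a floor the CF medians were -0.31 (Ccrl2- over PBS), 0.4 (Ccrl2+ over PBS) and 0.74 (Ccrl2+ over Ccrl2-), and with the floor at the 75th percentile, 10.14, they were -0.57, 0.84 and 1.42. Raising values to the floor gave 0.81 for Ccrl2+ over Ccrl2- in CF. With the higher floor, fewer genes were counted: 6 higher for Ccrl2- over PBS, 8 higher and 1 lower for Ccrl2+ over PBS and 14 higher for Ccrl2+ over Ccrl2- in CF; 0 lower for Ccrl2- over PBS, 10 lower for Ccrl2+ over PBS and 0 lower for Ccrl2+ over Ccrl2- in CM; and 3 higher and 6 lower for CF over CM. At 3-fold there were 6 higher and 8 lower for Ccrl2- over PBS and 2 lower for Ccrl2+ over PBS in CF, and in CM 1 lower for Ccrl2- over PBS, 0 lower for Ccrl2+ over PBS and 0 for Ccrl2+ over Ccrl2-. That last count, 2 as reported, was 0 with values raised to the floor, 1 after quantile normalization and 1 after the loess trend was removed. Of 360 recomputed differences of single called genes 0 changed sign after quantile normalization, loess removal or averaging of probe sets, and none moved by over 0.11. No paired analysis was possible because each group has 1 array. Without replicates, the spread between arrays behind the lower CM values is unknown, and values near the floor are close to the negative controls.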
